A study of Mus musculus with 24 samples.

Results

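The genes described here are 10 genes of the integrated stress response and of the brakes on mTOR signalling, followed in the gastrocnemius muscle of burned and sham mice of 2 ages. They were chosen by name from the 55401 genes of the count table. Their Ensembl identifiers map to Atf4, Ddit3, Trib3, Asns, Chac1, Eif4ebp1, Deptor, Ddit4, Sesn1 or Sesn2. The names were chosen with earlier results of these data known, so counts of calls among the 10 are descriptions. All 10 were found. Ddit3 had a second identifier whose 105 exon bases lie inside the first one and which held 0 counts in all 12 libraries, so it is not used further. All 10 passed the filter on low counts.

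Male C57BL6 mice, listed as 4 weeks (young) or 10 weeks (adult) old and described as 5 and 11 weeks old at the procedure, were scalded over 25% of their body surface under anaesthesia with analgesia, or went through a sham procedure with the same drugs but neither burn nor resuscitation. The muscle was taken 24 h later, from 3 mice in each of the groups adult sham (AS), adult burn (AB), young sham (YS) and young burn (YB), and 1 library of poly-A RNA was made from each animal. The libraries held 4392605 to 5688512 counts. The mice differed in age and procedure only, as far as the labels say. The study's RNA quality report gave no RNA integrity number for any sample. In that report the ratio of large to small ribosomal RNA was highest in adult sham replicates 1 and 3. The part of RNA quality in the comparisons was not tested.

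When a cell senses shortage of amino acids or haem, unfolded proteins or double-stranded RNA, a family of kinases phosphorylates the initiation factor eIF2. General protein synthesis then slows while the mRNA of Atf4 is translated more, and the ATF4 protein turns on genes for amino acid supply, tRNA charging and, under lasting stress, cell death; this programme is called the integrated stress response. The kinase mTOR, in its first complex (mTORC1), drives protein synthesis in response to amino acids and insulin, and in muscle it sets much of the balance between growth and wasting. Eif4ebp1, Deptor, Ddit4 and the sestrins each encode a protein that holds this pathway or its output back. Only mRNA was measured, and neither phosphorylation nor translation can be read from it.

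Levels are given as CPM (the count of a gene scaled to a fixed library total) after TMM normalization over the 12 libraries, in the order of replicates 1, 2 and 3. Differences are log2 fold changes ± standard error from edgeR's quasi-likelihood test, and a call means an adjusted p under 0.05 (Benjamini-Hochberg, over every gene tested). Young burn replicate 2 stood apart from the other libraries. Its root mean square deviation from its group mean was 0.444 on the log2 scale, against 0.216 to 0.303 in the others, and the legend of the study's heat map leaves 1 young burn animal out while its picture shows replicates 1 and 3. Tests are therefore given first over 11 libraries without it, so that young burn holds 2 mice, and then over all 12. Test results over 12 libraries are from edgeR, which weights the libraries alike, unless limma's voom is named. Voom with sample weights, which lets outlying libraries count less, gave young burn replicate 2 a weight of 0.154, against 0.86 to 1.92 in the others. In bulk muscle, fewer cells of a type and less RNA per cell cannot be told apart. The tissue label was matched by myofibre genes, 7 markers that summed to between 80331 and 158982 CPM. Of the keratinocyte markers, Krt5 and Krt14 were at 0 counts in all 12 libraries, while Krt10 held counts in each (404 in total).

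Per kilobase of exon, and over all 12 libraries, the mean level was highest for Atf4, at 132 CPM per kilobase. Eif4ebp1 followed with 65.7, Chac1 with 51.3, Deptor with 13.5, Sesn1 with 12, Ddit4 with 10.4 and Ddit3 with 9.28 CPM per kilobase. Trib3 (1.46), Sesn2 (1.01) and Asns (0.754 CPM per kilobase) were near the lower end of what these libraries could measure, with 12 to 23, 8 to 43 and 3 to 23 counts per library.

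**Figure D1:**
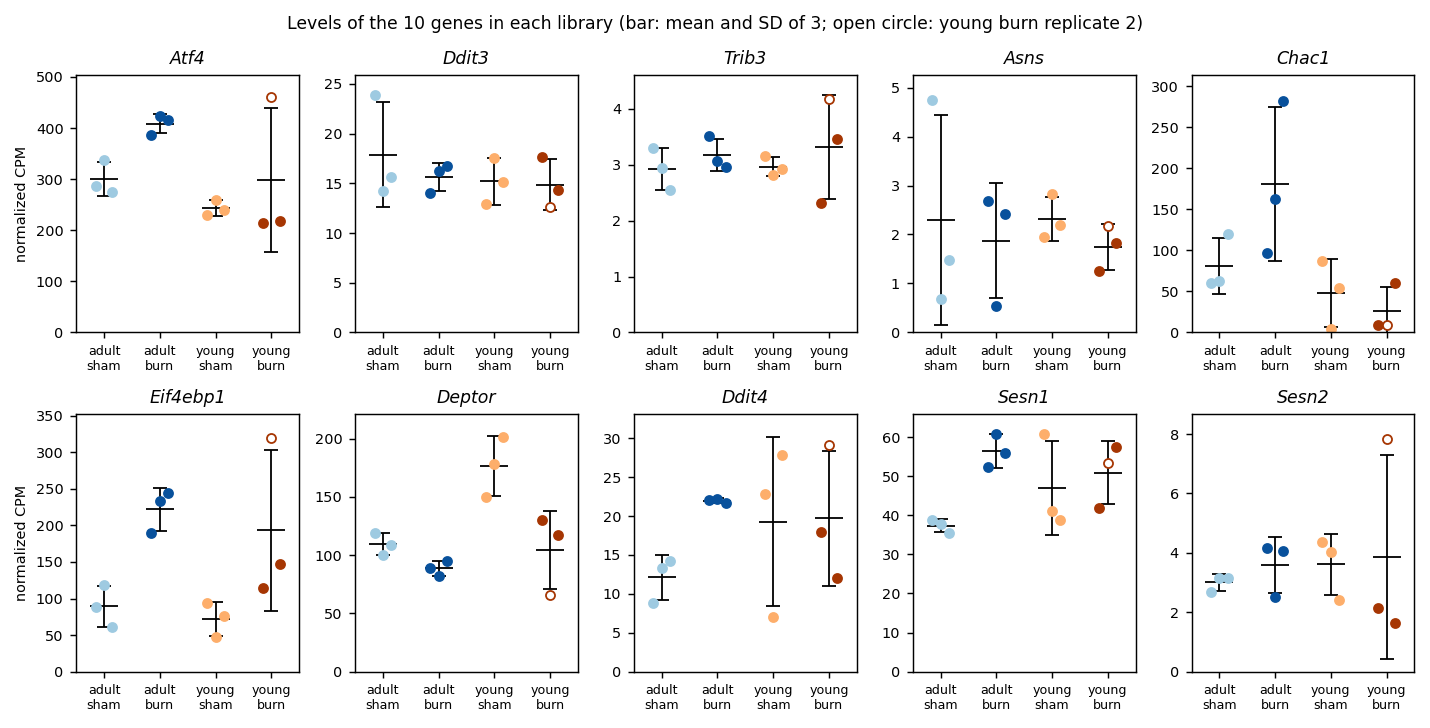
Normalized CPM (vertical axis, from 0, a separate scale for each gene) of the 10 genes in each of the 12 libraries, by group on the horizontal axis, with the mean and SD of the 3 mice as a bar and young burn replicate 2 as an open circle. In Eif4ebp1 the adult burn libraries (189 to 244 CPM) sit above all adult sham libraries (60.9 to 118 CPM), and the open circle lies far from the other young burn libraries in Atf4, Eif4ebp1, Sesn2 and Deptor.

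Atf4 encodes the transcription factor at the centre of the integrated stress response. Its level was 287, 337 and 275 CPM in adult sham and 387, 423 and 416 CPM in adult burn. In young sham it was 229, 260 and 239 CPM, and in young burn 215, 461 and 219 CPM. The adult burn libraries all lay above the adult sham libraries, all young sham libraries lay below all adult sham libraries, and in young burn 2 libraries lay just below the young sham range while replicate 2 held the highest level of all 12.

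Atf4 mRNA rose in adult burn over adult sham by 0.44 ± 0.10 on the log2 scale (1.36-fold, adjusted p = 0.0485 over 11 libraries). Its estimate in young burn against young sham was −0.15 ± 0.11 over 11 libraries (adjusted p = 0.543) and 0.30 ± 0.23 over 12 (adjusted p = 0.494). Between the burn groups Atf4 was lower in young burn by 0.91 ± 0.11 (log2 −0.91, 0.533-fold, adjusted p = 0.000211), and it kept that call without each of the 11 libraries in turn. Young sham differed from adult sham by −0.31 ± 0.10 (adjusted p = 0.0536), which passed in DESeq2 (adjusted p = 0.0311). Over 12 libraries that difference was −0.30 ± 0.23 (adjusted p = 0.504). The difference between the burn effects of both ages, the burn by age interaction, was −0.60 ± 0.15 for Atf4 with an unadjusted p of 0.00118, which missed the threshold after adjustment (adjusted p = 0.219) and passed it in DESeq2 (adjusted p = 0.0317).

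These Atf4 calls depended on which libraries entered. The adult burn call was lost without any one of adult burn replicates 1, 2 and 3, adult sham replicates 1 and 3, young burn replicates 1 and 3 and young sham replicate 3 (adjusted p from 0.0521 to 0.212), and over 12 libraries the adult burn estimate was 0.45 ± 0.23 with an adjusted p of 0.742. Over 12 libraries the difference between the burn groups was −0.45 ± 0.23 in edgeR (adjusted p = 0.218), and the interaction was −0.15 ± 0.33 (adjusted p = 0.936). Limma's voom on 12 libraries called the difference between the burn groups (−0.85 ± 0.13, adjusted p = 0.00048) and not the interaction (−0.56 ± 0.18, adjusted p = 0.253).

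Ddit3 encodes CHOP, a transcription factor that ATF4 induces and that is linked to cell death in lasting stress. Its level was 23.9, 14.2 and 15.6 CPM in adult sham, 14, 16.2 and 16.7 CPM in adult burn, 12.9, 17.6 and 15.1 CPM in young sham, and 17.7, 12.6 and 14.3 CPM in young burn. The 4 groups overlapped, adult sham replicate 1 was the highest library, and Ddit3 was called in no comparison. Ddit3 shares 68 exon bases with the methionyl-tRNA synthetase gene and 13 with Gm4189, both on the opposite strand, and since no source used here states which strand was counted, reads from those bases cannot be told apart.

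Trib3 encodes a pseudokinase that ATF4 and CHOP induce and that restrains AKT and ATF4 itself. It measured 3.3, 2.94 and 2.54 CPM in adult sham, 3.51, 3.06 and 2.96 CPM in adult burn, 3.16, 2.82 and 2.92 CPM in young sham, and 2.32, 4.18 and 3.46 CPM in young burn. All groups overlapped, with the lowest and the highest of the 12 values both in young burn, and no comparison called it.

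Asns encodes asparagine synthetase, which makes asparagine and is a classical target of ATF4. It was at 4.74, 0.678 and 1.48 CPM in adult sham, 2.68, 0.541 and 2.41 CPM in adult burn, 1.94, 2.82 and 2.19 CPM in young sham, and 1.25, 2.18 and 1.83 CPM in young burn. The adult libraries spread more widely than the young ones, and Asns was called in no comparison. The young burn libraries 1 and 3 lay below the young sham range, and replicate 2 lay inside it.

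Chac1 encodes an enzyme that degrades glutathione and is induced by ATF4. Its level was 59.8, 62.8 and 120 CPM in adult sham and 97.1, 163 and 282 CPM in adult burn. In young sham it was 86.4, 4.24 and 53.9 CPM, and in young burn 8.57, 9.46 and 60.3 CPM. Chac1 was the member with the widest spread within groups, at more than an order of magnitude in young sham, and the adult burn libraries all lay above all young burn libraries. Chac1 was lower in young burn than in adult burn, with a log2 fold change of −2.40 ± 0.80 (0.189-fold, adjusted p = 0.0448) over 11 libraries and −2.80 ± 0.83 (adjusted p = 0.0465) over 12. This call was lost without any one of adult burn replicates 2 and 3, adult sham replicates 1 and 2, young burn replicate 1 and young sham replicate 3 (adjusted p from 0.0524 to 0.285), and in DESeq2 (adjusted p = 0.132). In adult burn against adult sham the estimate was 1.15 ± 0.64 (adjusted p = 0.454), and the ranges overlapped.

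ATF4 binds with C/EBP family partners to a response element whose core reads TGATGNAA. This core was searched on both strands in the RefSeq promoter windows of GRCm38.p6, from 250 bases before to 50 bases after the start, which hold 8 of the 10 genes. Eif4ebp1 and Deptor were not among them. The core was found in 3 of the 8, Trib3, Asns and Chac1, and not in the windows of Atf4, Ddit3, Ddit4, Sesn1 or Sesn2. Of all 27025 genes with a window, 4.51% hold it. The stretches that carry it are shown on the strand of the gene, with the core, or its reverse complement, in capitals, because these are the members whose window holds it.
Asns (chr6:7693210-7693329, minus strand, bases −120 to −1): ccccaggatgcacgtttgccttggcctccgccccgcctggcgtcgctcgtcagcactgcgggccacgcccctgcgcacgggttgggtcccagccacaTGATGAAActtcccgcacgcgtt
Chac1 (chr2:119350993-119351112, plus strand, bases −249 to −130): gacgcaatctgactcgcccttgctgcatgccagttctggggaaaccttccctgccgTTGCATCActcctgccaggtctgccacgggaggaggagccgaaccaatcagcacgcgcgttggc
Trib3 (chr2:152344028-152344057, minus strand, bases 4 to 33 after the start): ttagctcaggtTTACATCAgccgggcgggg
The core lies at −23 to −16 in Asns, at −193 to −186 in Chac1 and at 15 to 22 after the start in Trib3. A match of these letters is not a measured binding site, and no binding was measured here.

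Eif4ebp1 encodes 4E-BP1, which binds the cap-binding factor eIF4E and so holds back translation until mTORC1 phosphorylates it. The gene is also a known target of ATF4. Its level was 88.6, 118 and 60.9 CPM in adult sham and 189, 233 and 244 CPM in adult burn. In young sham it was 93.4, 46.8 and 76.8 CPM, and in young burn 114, 319 and 147 CPM. In either age every burn library lay above every sham library, with or without young burn replicate 2.

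The largest rise called with burn among the 10 genes over 11 libraries was that of Eif4ebp1. It rose in adult burn by 1.31 ± 0.23 (2.48-fold, adjusted p = 0.0179 over 11 libraries), and the burn term of the model with both ages gave a rise of 1.12 ± 0.18 (2.17-fold, adjusted p = 0.00546). In young burn the estimate was 0.87 ± 0.26 over 11 libraries (1.83-fold, adjusted p = 0.121) and 1.42 ± 0.35 over 12 (adjusted p = 0.0771), both short of the threshold. The interaction was −0.44 ± 0.35 (adjusted p = 0.656), so a difference between the ages was not shown. Against adult burn it was lower in young burn at −0.76 ± 0.26 (adjusted p = 0.0476) over 11 libraries, and at −0.20 ± 0.34 (adjusted p = 0.742) over 12. DESeq2 (adjusted p = 0.107) and limma's voom on 12 libraries (0.0601) did not call that difference.

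The rise of Eif4ebp1 across both ages was the burn result among the 10 genes that held most widely. It passed the threshold without each of the 11 libraries in turn and over all 12 libraries (1.37 ± 0.24, adjusted p = 0.0233). The call in adult mice alone was lost without any one of adult burn replicates 2 and 3 and adult sham replicates 1 and 3 (adjusted p from 0.061 to 0.075), and over 12 libraries (1.32 ± 0.35, adjusted p = 0.555). The call between the burn groups was lost without any one of adult burn replicates 2 and 3, adult sham replicate 1, young burn replicates 1 and 3 and young sham replicate 3 (adjusted p from 0.055 to 0.288).

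Of its paralogs, Eif4ebp2 was at 155 to 180 CPM in adult sham, 171 to 180 in adult burn, 85.5 to 135 in young sham and 98.9 to 123 in young burn, and its burn effect was 0.05 ± 0.15 in adult and 0.12 ± 0.17 in young mice, neither called. With age it was called, lower in young sham than in adult sham at −0.74 ± 0.15 (adjusted p = 0.0073) and lower in young burn than in adult burn at −0.66 ± 0.17 (adjusted p = 0.0149), and both calls also stood over 12 libraries (adjusted p = 0.0311 and 0.0177). Eif4ebp3 reached at most 0.546 CPM and was too low to test. The difference between the paralogs was not itself tested.

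Deptor encodes a protein that binds mTOR and inhibits both of its complexes. Its level was 119, 100 and 109 CPM in adult sham and 88.8, 82.2 and 94.6 CPM in adult burn. In young sham it was 150, 178 and 201 CPM, and in young burn 130, 66.2 and 117 CPM. It was the one gene of the 10 that edgeR called between the sham groups over 11 libraries. All young sham libraries lay above all other libraries, and in either age every burn library lay below every sham library.

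Deptor was higher in young sham than in adult sham by 0.68 ± 0.12 (1.61-fold, adjusted p = 0.00229), a call that stood without each of the 11 libraries in turn, with an adjusted p of 0.0708 over 12. Limma's voom on 12 libraries called this difference between the sham groups (adjusted p = 0.00341). After burn Deptor fell across both ages by 0.40 ± 0.09 on the log2 scale (0.759-fold, adjusted p = 0.032). Within an age the estimates were −0.31 ± 0.12 in adult mice (adjusted p = 0.247) and −0.51 ± 0.13 in young mice (adjusted p = 0.0841), and the interaction was −0.20 ± 0.17 (adjusted p = 0.699). Deptor remained higher in young burn than in adult burn, by 0.49 ± 0.13 (adjusted p = 0.0171). In limma's voom on 12 libraries that difference was 0.40 ± 0.13 (adjusted p = 0.0375).

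The fall of Deptor was near the threshold in edgeR. Across both ages DESeq2 called it over 11 libraries (adjusted p = 0.00446), and limma's voom called it on 12 libraries (adjusted p = 0.0478). The losses given next are those in edgeR. The call across both ages was lost without any one of adult burn replicate 2, adult sham replicates 1 and 3, young burn replicates 1 and 3 and young sham replicates 2 and 3 (adjusted p from 0.0501 to 0.142), and over 12 libraries, where the estimate was −0.53 ± 0.15 (adjusted p = 0.101). The call between the burn groups was lost without adult burn replicate 2, young burn replicate 1 or young burn replicate 3 (adjusted p from 0.0522 to 0.149) and over 12 libraries (0.24 ± 0.20, adjusted p = 0.472). Deptor shares 303 of its 8874 exon bases with Gm9920 on the opposite strand.

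**Figure D2:**
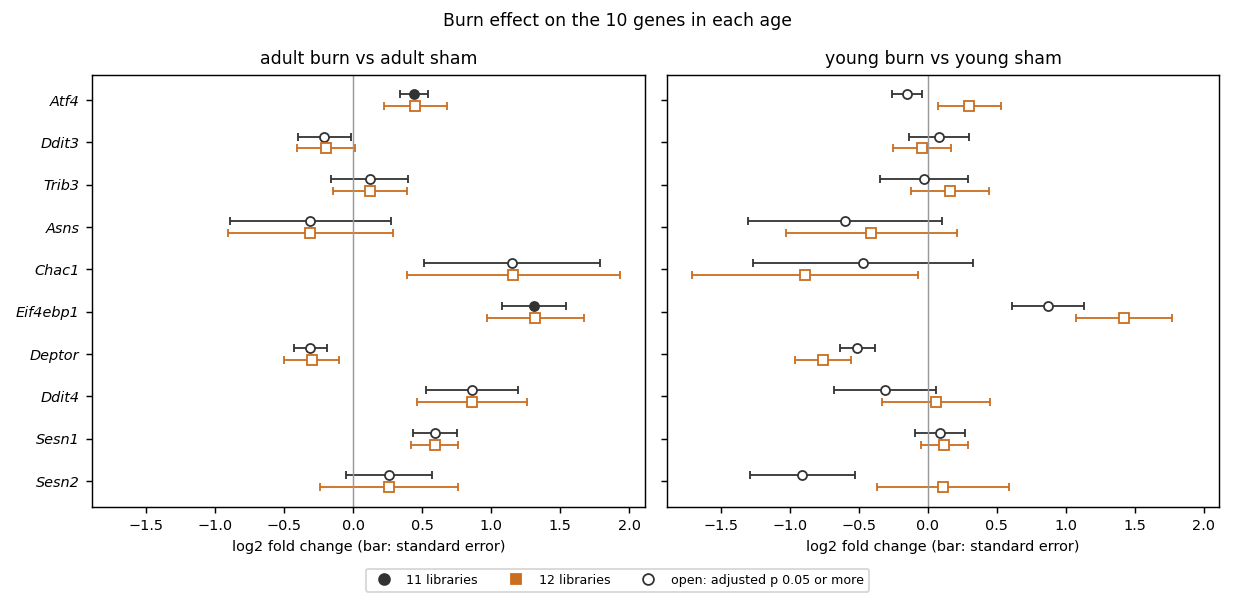
Log2 fold change of burn against sham (horizontal axis, bars are standard errors) for the 10 genes in adult and young mice, over 11 libraries without young burn replicate 2 (circles) and over all 12 (squares), filled where the adjusted p was under 0.05. Only Eif4ebp1 (1.31) and Atf4 (0.44) in adult mice over 11 libraries are filled, and Sesn2 in young mice moves from −0.91 to 0.11 when replicate 2 is added.

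Ddit4 encodes REDD1, which restrains mTORC1 through the TSC complex and is induced by glucocorticoids and low oxygen. Its level was 8.86, 13.3 and 14.2 CPM in adult sham and 22.1, 22.2 and 21.7 CPM in adult burn. In young sham it was 22.8, 7.06 and 27.9 CPM, and in young burn 18, 29.1 and 12 CPM. The adult burn libraries lay close together and above all adult sham libraries, while the young groups overlapped and spread widely. In adult burn the estimate for Ddit4 was 0.86 ± 0.33 (1.81-fold) with an unadjusted p of 0.0206 and an adjusted p of 0.255. It was called when the 2 adult groups were fitted alone (adjusted p = 0.0424) and without young sham replicate 2 (adjusted p = 0.0468). Over 12 libraries the estimate was 0.86 ± 0.40 (adjusted p = 0.72). DESeq2 (adjusted p = 0.225) and limma's voom on 12 libraries (0.235) did not call it either. The interaction was −1.17 ± 0.50 (unadjusted p = 0.033, adjusted p = 0.417). Its paralog Ddit4l was called in no comparison, and stood at 324 to 436 CPM in adult sham and 309 to 477 in adult burn. In young sham Ddit4l was at 360 to 521 CPM, and in young burn at 313 and 328 CPM, with 59.1 CPM in replicate 2.

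The sestrins bind the GATOR2 complex and so restrain mTORC1 when leucine is short, Sesn1 being a target of p53 and Sesn2 of ATF4. Sesn1 was at 38.8, 37.7 and 35.5 CPM in adult sham and 52.3, 60.9 and 55.9 CPM in adult burn. In young sham it was at 60.9, 41.2 and 38.9 CPM, and in young burn at 41.9, 53.3 and 57.4 CPM. The adult groups were tight and did not overlap, whereas the young groups did. In adult burn the estimate for Sesn1 was 0.59 ± 0.16 (1.51-fold, adjusted p = 0.0952) over 11 libraries. It passed in DESeq2 (adjusted p = 0.0463), without young sham replicate 1 (0.0263) and with the 2 adult groups fitted alone (0.0232). It did not pass over 12 libraries (0.59 ± 0.17, adjusted p = 0.555) or in limma's voom on 12 libraries (0.097).

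Sesn2 was at 2.68, 3.16 and 3.17 CPM in adult sham, 4.18, 2.52 and 4.07 CPM in adult burn, 4.37, 4.03 and 2.43 CPM in young sham, and 2.14, 7.82 and 1.63 CPM in young burn. Young burn replicates 1 and 3 were the lowest of the 12 libraries and replicate 2 was the highest. Its estimate in young burn against young sham turned from −0.91 ± 0.38 (adjusted p = 0.259) over 11 libraries to 0.11 ± 0.48 (adjusted p = 0.924) over 12, and against adult burn from −0.91 ± 0.37 (adjusted p = 0.0947) to 0.12 ± 0.47 (adjusted p = 0.896). The paralog Sesn3 was called with age and not with burn. Sesn3 was at 9.49 to 18.6 CPM in adult sham and 9.63 to 15.2 in adult burn, against 24.8 to 30.3 in young sham and 20 to 24.6 in young burn. Its log2 fold change was 0.84 ± 0.21 between the sham groups (adjusted p = 0.0173) and 1.04 ± 0.23 between the burn groups (adjusted p = 0.00622).

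Seen as a group, 2 of the 10 genes were called in adult burn against adult sham over 11 libraries (Eif4ebp1 and Atf4, both higher), where 0.909% of the 12651 genes tested were called. The ranges of 5 of the 10 did not overlap between those groups, against 19.9% of all genes, with Eif4ebp1, Ddit4, Sesn1 and Atf4 higher and Deptor lower in adult burn. The median log2 fold change over the 10 was 0.35, beside 0.00 over all genes. Over 12 libraries none of the 10 was called by edgeR (3 had an unadjusted p under 0.05, Eif4ebp1, Ddit4 and Sesn1), where 0.00806% of the 12408 genes tested were, and limma's voom with sample weights on 12 libraries called 1 of the 10. DESeq2 over 11 libraries called 3 of the 10, Sesn1 besides Eif4ebp1 and Atf4.

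In young burn against young sham edgeR with the filter on low counts called none of the 10 over 11 libraries, where 0.664% of genes were called, and none over 12, where 0.0645% were. Over 11 libraries 3 had an unadjusted p under 0.05 (Eif4ebp1, Sesn2 and Deptor), DESeq2 called Deptor (adjusted p = 0.0239), and voom on 12 libraries called Eif4ebp1 (0.0494) and Deptor (0.0384). Ranges did not overlap for 5 of the 10 (Eif4ebp1 higher, and Sesn2, Atf4, Asns and Deptor lower), where 32.4% of all genes did not, with 2 young burn libraries. With all 12 libraries this was 2 of the 10 (Eif4ebp1 and Deptor), against 21.8% of genes. The median was −0.23 over 11 libraries and 0.08 over 12, beside 0.01 over all genes in both.

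Across both ages edgeR called 2 of the 10 over 11 libraries (Eif4ebp1 higher and Deptor lower), where 2.15% of genes were called, and Eif4ebp1 alone over 12, where 0.717% were. Limma's voom on 12 libraries called both, where 207 of 12408 genes were called. The interaction called none of the 10 in edgeR with the filter on low counts, where 0.0949% of genes were called over 11 libraries and 0% over 12, and 3 of the 10 had an unadjusted p under 0.05 (Atf4, Ddit4 and Sesn2), with Atf4 called in DESeq2 as given above. Of the 10 interaction estimates over 11 libraries, 9 were below 0, with a median of −0.47 beside 0.01 over all genes. Over 12 libraries 7 of the 10 were below 0, with a median of −0.15 beside 0.02 over all genes. The unadjusted p of Atf4, Ddit4 and Sesn2 was then 0.657, 0.172 and 0.828 in edgeR.

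With age, edgeR called 1 of the 10 between the sham groups over 11 libraries (Deptor, higher in young), where 11.8% of genes were called. DESeq2 called Atf4 there too, as given above. Ranges did not overlap for 3 of the 10 (Sesn1 and Deptor higher, Atf4 lower in young sham), against 31.1% of genes. Between the burn groups 4 of the 10 were called over 11 libraries (Deptor higher, and Atf4, Eif4ebp1 and Chac1 lower in young burn), where 20.7% of genes were, and 6 of the 10 had ranges that did not overlap, against 53.2% of genes. Over 12 libraries edgeR called Chac1 alone between the burn groups, where 10.8% of genes were, and none of the 10 between the sham groups, where 3.76% were. Limma's voom on 12 libraries called Atf4, Chac1 and Deptor between the burn groups, where 3158 of 12408 genes were called. Between the sham groups it called Deptor, where 1405 of 12408 were. The comparisons share groups with each other (adult sham enters both the adult burn effect and the comparison of the sham groups, for example), so their values are set side by side and not counted as separate support.

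Young burn replicate 2 differed from its group in several of the 10 genes. Its level relative to the mean of young burn replicates 1 and 3 was 4.15-fold in Sesn2, 2.44-fold in Eif4ebp1, 2.13-fold in Atf4 and 1.94-fold in Ddit4, and 0.537-fold in Deptor and 0.275-fold in Chac1. Its neutrophil markers summed to 27.3 CPM, against 9.37 and 9.82 CPM in the other young burn libraries, and its myofibre markers to 80331 CPM, the lowest of all 12. The part of either in these levels was not tested.

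Upstream of Atf4 stand the eIF2 kinases, eIF2 and its exchange factor eIF2B, a list of 16 genes that also holds the phosphatase subunits which end the response. In adult burn 1 of the 16 was called. Ppp1r15a, an ATF4 target that encodes GADD34 and directs dephosphorylation of eIF2, was at 40.4, 44.4 and 52.4 CPM in the adult sham libraries in ascending order and at 69.2, 69.4 and 87.1 CPM in adult burn. Its groups did not overlap, and Ppp1r15a rose by 0.72 ± 0.14 (adjusted p = 0.022), with an adjusted p of 0.762 over 12 libraries.

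In the young libraries Ppp1r15a was at 18.2, 21.2 and 26.9 CPM in young sham and at 18.7 and 20 CPM in young burn, with 87.3 CPM in replicate 2. It was lower in young sham than in adult sham at −1.06 ± 0.15 (adjusted p = 0.000847) and lower in young burn than in adult burn at −1.95 ± 0.17 (adjusted p = 8.48e-06), and over 12 libraries neither was called (adjusted p = 0.216 and 0.215). Its interaction was −0.90 ± 0.23 (adjusted p = 0.224). The order of the group means over 11 libraries, adult burn, adult sham, young sham and young burn from high to low, was that of Atf4, and replicate 2 was far above its group in both genes.

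Of the kinases themselves, none was called by edgeR in a burn comparison within an age. Eif2ak1, the haem-regulated kinase, was lower in young burn than in adult burn at −0.69 ± 0.13 (adjusted p = 0.00267), and this call stood over 12 libraries (adjusted p = 0.0116). Eif2ak2, Eif2ak3 and Eif2ak4, which sense double-stranded RNA, unfolded protein and amino acid shortage, stood at 4.33 to 12.9, 6.32 to 12.1 and 6.34 to 9.53 CPM over the 12 libraries and were called in no comparison. Eif2b2 (−0.50 ± 0.15) and Eif2s1 (−0.36 ± 0.12), subunits of eIF2B and eIF2, were also lower in young burn than in adult burn, so that 4 of the 16 were called there, all lower, where 20.7% of all genes were called, and 1 of the 16 over 12 libraries, where 10.8% were. Both of these edgeR shares are near or below those of all genes. Limma's voom on 12 libraries called 7 of the 16 there, where 3158 of 12408 genes were called.

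Aminoacyl-tRNA synthetases, which load amino acids onto tRNAs and many of which ATF4 induces, were measured as a list of 20 cytosolic genes. With burn edgeR called none of the 20 in either age, with an unadjusted p under 0.05 for 9 of the 20 in adult and 0 in young mice, and DESeq2 called 1 of the 20 in adult and 0 in young mice. In adult burn the list's median log2 fold change was 0.21 with 17 of 20 estimates above 0, and in young burn the median was 0.00. Between the burn groups 11 of the 20 were called (20.7% of all genes were), all lower in young burn, and all 20 estimates lay below 0 with a median of −0.39. The strongest were Aars (alanyl, −0.88 ± 0.11, adjusted p = 0.000232), Yars (tyrosyl, −0.85 ± 0.12, adjusted p = 0.000501), Iars (isoleucyl, −0.68 ± 0.14, adjusted p = 0.00435) and Mars1 (methionyl, −0.64 ± 0.15, adjusted p = 0.00928).

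Between the sham groups 4 of the 20 synthetases were called (11.8% of all genes were), all lower in young sham: Aars (−0.58 ± 0.10), Iars (−0.57 ± 0.13), Yars (−0.48 ± 0.11) and Sars (seryl, −0.34 ± 0.09). Over 12 libraries edgeR's calls fell to 0 of 20 between the sham groups and to 2 of 20 between the burn groups, with 19 of 20 estimates below 0 in each. Limma's voom with sample weights on 12 libraries called 4 of 20 between the sham groups, where 1405 of 12408 genes were called. Between the burn groups it called 13 of 20, where 3158 of 12408 genes were. A synthetase promoter window was held for 13 of the 20, and 5 of the 13 contained the core TGATGNAA (Aars, Gars, Iars, Tars and Yars). All 5 were among the genes called between the burn groups, as were 5 of the 8 without it. The stretches before the start in Aars, the synthetase with the strongest call, and in Tars, whose profile was among the most like that of Atf4, are shown with the core in capitals as above. The window of Aars held a second match at 10 to 17 after the start.
Aars (chr8:111033674-111033793, plus strand, bases −168 to −49): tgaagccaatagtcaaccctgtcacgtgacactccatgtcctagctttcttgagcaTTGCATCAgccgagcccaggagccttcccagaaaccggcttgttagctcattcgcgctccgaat
Tars (chr15:11399659-11399778, minus strand, bases −120 to −1): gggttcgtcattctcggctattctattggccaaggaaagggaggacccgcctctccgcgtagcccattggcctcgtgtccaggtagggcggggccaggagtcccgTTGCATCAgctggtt

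**Figure D3:**
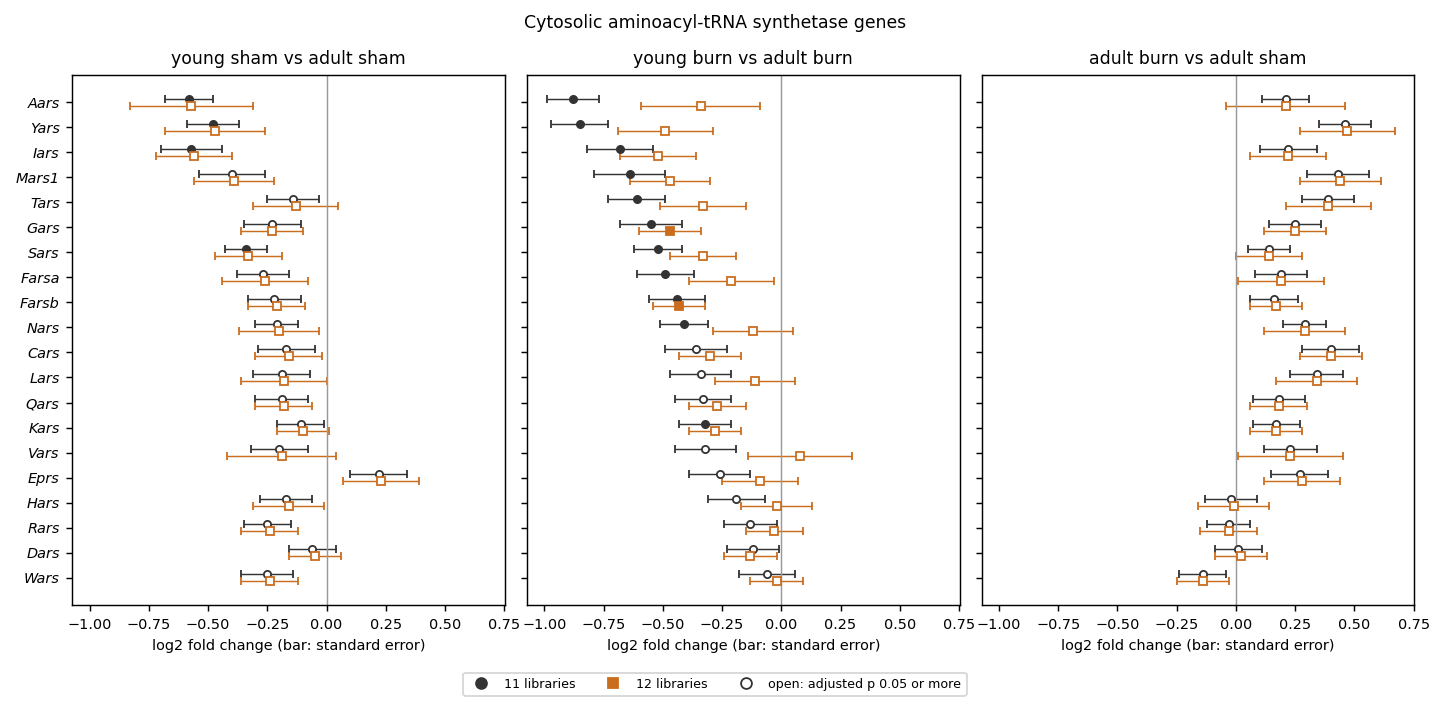
Log2 fold change (horizontal axis, bars are standard errors) of the 20 cytosolic aminoacyl-tRNA synthetase genes between the sham groups, between the burn groups and in adult burn against adult sham, over 11 libraries (circles) and 12 (squares), filled where the adjusted p was under 0.05. All 20 circles lie below 0 between the burn groups with 11 filled, and none is filled in adult burn against adult sham.

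Other ATF4 partners and stress targets (14 genes, 12 tested) gave 1 call in adult burn, and none in young burn (2 of 12 at an unadjusted p under 0.05, and none in DESeq2 or voom). Sqstm1, the autophagy receptor p62, rose by 0.72 ± 0.13 in adult burn (adjusted p = 0.02) and by 0.60 ± 0.10 across both ages (adjusted p = 0.00804), and over 12 libraries neither passed (adjusted p = 0.692 and 0.0622). In young burn against adult burn 6 of the 12 were called (20.7% of all genes were), 5 of them lower in young burn. The largest were Atf3, a stress-induced transcription factor (−1.68 ± 0.40, adjusted p = 0.0093), the lipoprotein receptor Vldlr (−1.16 ± 0.22, adjusted p = 0.00304), Sqstm1 (−0.69 ± 0.15) and, in the other direction, the stress protein gene Nupr1 (0.72 ± 0.15, adjusted p = 0.00494). Atf3, Vldlr and Nupr1 were also called over 12 libraries in edgeR, and Sqstm1 was not (−0.11, adjusted p = 0.838). Limma's voom on 12 libraries called 7 of the 12 between the burn groups, where 3158 of 12408 genes were called.

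Between the sham groups 3 of the 12 were called (11.8% of all genes were), Vldlr (−1.25 ± 0.20) and Sqstm1 (−0.43 ± 0.13) lower and Nupr1 (0.77 ± 0.14) higher in young sham. Over 12 libraries 2 of the 12 were called there, Vldlr and Nupr1, where 3.76% of genes were. Of the amino acid transporters (9 genes, 7 tested), burn called none in either age in edgeR, with an unadjusted p under 0.05 for 3 of 7 in adult and 1 of 7 in young mice and 1 of 7 called by DESeq2 in adult mice. Slc38a2, a sodium-coupled neutral amino acid carrier, was lower in young burn than in adult burn (−0.72 ± 0.17, adjusted p = 0.00953). Over 12 libraries Slc38a2 was at −0.16 (adjusted p = 0.749).

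The genes of amino acid and one-carbon synthesis (13 genes, 12 tested) had no call with burn in either age in edgeR, with an unadjusted p under 0.05 for 2 of 12 in adult and 3 of 12 in young mice, and DESeq2 called 1 of 12 in adult mice. In young burn against adult burn, Mthfd1l of mitochondrial folate metabolism (1.72 ± 0.44, at most 2.32 CPM) and Psat1 (phosphoserine aminotransferase, 1.00 ± 0.32) were higher and Gpt2 (mitochondrial alanine aminotransferase, −0.84 ± 0.17) was lower in young burn, and between the sham groups Got1 (cytosolic aspartate aminotransferase, −0.65 ± 0.15) was lower in young sham. Those 3 calls between the burn groups, of 12, compare with 20.7% of all genes, and over 12 libraries Gpt2 alone was called there (adjusted p = 0.00658), with Psat1 at an adjusted p of 0.0831 and Mthfd1l below the filter. Got1 was also called over 12 libraries (adjusted p = 0.0448). The chaperones and other arms of the unfolded protein response (18 genes) likewise had no call with burn within an age in edgeR, DESeq2 or voom (3 of 18 in adult and 1 of 18 in young mice had an unadjusted p under 0.05), with 17 of 18 estimates above 0 in adult burn and a median of 0.14. Young burn was lower than adult burn in 4 of the 18, a share close to the 20.7% called among all genes. These were Dnajb9 (−0.75 ± 0.11), Xbp1 (−0.59 ± 0.12), Syvn1 (−0.40 ± 0.13) and Hspa5, the chaperone BiP (−0.38 ± 0.13). All 4 calls were lost over 12 libraries in edgeR, where the estimates lay between −0.01 and 0.09. Limma's voom on 12 libraries called 2 of the 18 between the burn groups, where 3158 of 12408 genes were called. Between the sham groups 3 of the 18 were called over 11 libraries (11.8% of all genes were), 1 higher and 2 lower in young sham, and 0 over 12.

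Of the genes of the mTOR pathway itself, none was called with burn within an age by edgeR, DESeq2 or voom. The mTOR complexes (11 genes, 10 tested), the TSC, GATOR and other inhibitors (16 genes), the activators (19 genes) and the translation and growth outputs (14 genes, 13 tested) had median log2 fold changes in adult burn of −0.06, −0.00, 0.07 and 0.17. An unadjusted p under 0.05 was found there for 1 of 10, 1 of 16, 5 of 19 and 2 of 13, and in young burn for 0 of 10, 3 of 16, 1 of 19 and 1 of 13. Across both ages Tbc1d7, the third subunit of the TSC complex, fell by 0.46 ± 0.11 on the log2 scale (adjusted p = 0.0371), also over 12 libraries (−0.48, adjusted p = 0.0494).

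With age, Tsc1 was lower in young mice, at −0.42 ± 0.12 between the sham groups (adjusted p = 0.0349) and −0.66 ± 0.14 between the burn groups (adjusted p = 0.0044). The lysosomal amino acid sensor Slc38a9 was higher in young mice, at 0.55 ± 0.14 (adjusted p = 0.0229) and 0.59 ± 0.15 (adjusted p = 0.0158). Over 12 libraries both genes were called between the burn groups (adjusted p = 0.0127 for Tsc1 and 0.0412 for Slc38a9) and neither between the sham groups (0.0945 and 0.0591). Young burn was also lower than adult burn in the mTORC1 activators Rraga (−0.44 ± 0.12) and Rheb (−0.43 ± 0.11). So it was in Akt1s1, which encodes the mTORC1 inhibitor PRAS40 (−0.38 ± 0.10), and in Tti1 (−0.49 ± 0.15). Of these only Tti1 was called over 12 libraries (adjusted p = 0.0425). Between the burn groups 2 of 10 complex genes, 3 of 16 inhibitors and 3 of 19 activators were called, near or below the 20.7% of all genes. Over 12 libraries these counts were 1, 3 and 1, where 10.8% of genes were called. Between the sham groups they were 1, 3 and 2 over 11 libraries, where 11.8% of genes were called, and 0 in each list over 12. The list of outputs had 7 of 13 called between the burn groups (20.7% of all genes were), 6 lower in young burn, among them the autophagy kinase Ulk1 (−0.87 ± 0.19), Eif4ebp2 and the mRNA-binding protein Larp1 (−0.52 ± 0.13), with the translation inhibitor Pdcd4 higher (0.69 ± 0.15). Over 12 libraries edgeR called 2 of the 13, Eif4ebp2 and Tfeb, where 10.8% of genes were. Limma's voom on 12 libraries called 7 of the 13, where 3158 of 12408 genes were.

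The p53 targets (11 genes), listed because Sesn1 is one, had no call with burn in either age in edgeR, with an unadjusted p under 0.05 for 4 of 11 in adult and 1 of 11 in young mice, and DESeq2 called 1 of 11 in young mice. Between the sham groups 3 of the 11 were called (11.8% of all genes were) and lower in young mice, although 6 of the 11 estimates lay above 0 with a median of 0.13. They were Aen (−1.08 ± 0.18), Phlda3 (−1.03 ± 0.11, adjusted p = 6.46e-05) and Tigar (−0.69 ± 0.10), and between the burn groups these 3 and Eda2r (−1.97 ± 0.49), 4 of the 11, were lower (20.7% of all genes were called). Over 12 libraries Aen, Phlda3 and Tigar passed in both comparisons and Eda2r did not (adjusted p = 0.233). Sesn1 was called in neither comparison with age, at 35.5 to 38.8 CPM in adult sham and 38.9 to 60.9 CPM in young sham, and at 52.3 to 60.9 CPM in adult burn and 41.9 to 57.4 CPM in young burn.

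The protein-coding genes most like Eif4ebp1 over the 12 libraries, by Pearson's r of log2 CPM among 11720 genes, were Psmd4 (r = 0.96), Pnpla2 (0.96), Aspscr1 (0.95), Vegfd (0.95) and Psmc2 (0.95). Psmd4 and Psmc2 encode subunits of the proteasome and Pnpla2 encodes adipose triglyceride lipase. For Atf4 they were Eed, Mybbp1a, Kat8, Tars and Ppp1r15a, all with r = 0.96, and Tars and Ppp1r15a belong to the lists above. For Deptor they were Rbpms, Trim7, Fxyd1 and Ndufa1, with r = 0.97, and Car3, with r = 0.96. Without young burn replicate 2 these correlations were 0.93 to 0.98 over 11 libraries. The points share their groups, depth and normalization, so the correlations are descriptions.

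Markers of other cells moved with burn too. The 6 macrophage markers summed to 131 to 153 CPM in adult sham and 161 to 231 CPM in adult burn, and to 141 to 181 CPM in young sham and 233 to 382 CPM in young burn. The 6 neutrophil markers summed to 2.33 to 5.36, 6.85 to 14.9, 2.02 to 4.13 and 9.37 to 27.3 CPM in the same order, with Ly6g at 0 counts in all 12 libraries. In both lists the burn libraries lay above the sham libraries of their age, the same separation as in Eif4ebp1. With age, the 3 fibroblast markers summed to 1894 to 2412 CPM in the adult and 3109 to 3917 CPM in the young libraries, which did not overlap, and all young sham libraries lay above all adult libraries in Deptor. The 7 myofibre markers summed to 93552 to 103219 CPM in adult sham, 93876 to 111592 in adult burn, 110671 to 158982 in young sham and 80331 to 103172 in young burn. Young sham thus lay above adult sham and above young burn without overlap, as in Deptor, while the adult groups overlapped, unlike in Deptor. Of the 4 endothelial markers, 2 estimates in adult burn lay above 0 and 2 below over 11 libraries, with a median of −0.03. Kdr alone was called there, lower in adult burn (−0.70 ± 0.15, adjusted p = 0.0374), and over 12 libraries none of the 4 was called. Sums of endothelial (228 to 381 CPM), adipocyte (12.4 to 280 CPM) and Schwann cell markers (49.1 to 166 CPM) overlapped between burn and sham in either age. Those of red blood cell markers were lower in adult burn (219 to 248 CPM) than in adult sham (257 to 412 CPM). Those of keratinocyte markers, of which Krt10 alone held counts, were lower in young burn (4.55 to 7.14 CPM) than in young sham (9.22 to 10.9 CPM). The part of these cells in the levels of the 10 genes was not tested.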

How the data were processed

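Per the labels and the study's methods, the authors aligned paired 75-base reads of poly-A RNA to GRCm38 with STAR 2.7.5c and deposited raw counts per gene on Gencode M25, with no normalization, filter or pooling. Which strand was counted is not stated there. bcl2fastq 2.20 and featureCounts 2.0.1 are also named in the submitters' processing notes. The small RNA counts were not used here.

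Gencode M21 (GRCm38) gave symbols and positions, and 260 of 55401 genes had no match. In R 4.3.3 with edgeR 4.0.16, counts were filtered by filterByExpr (minimum count 10, minimum total 15), TMM-normalized and fitted by the quasi-likelihood method with a mean per group. The burn term across both ages had age as covariate. Two-sided p-values were Benjamini-Hochberg adjusted over 12651 genes (11 libraries) or 12408 (12 libraries). DESeq2 1.42.0 and limma 3.58.1 were alternatives. Log2 CPM used a prior count of 2. The fits were also run on simulated data of the 11 libraries, in which adult burn alone was changed. Only the comparison of adult burn with adult sham was checked there, so differences with age, the interaction and young burn replicate 2 were not covered. Figures were drawn with matplotlib 3.10.9.

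The genes and lists were chosen with earlier results of these data known. All 10 genes are named, as are paralogs of the 10 and the eIF2 kinases. From each list at most 4 called genes with the largest log2 fold change in a comparison were eligible to be named. Some of those are not named, among them the unfolded protein response genes called between the sham groups. Replicate numbers did not pair the mice. The labels give each library as a separate animal. Depth was 4392605 to 5688512 counts, and intervals of counting error are not given, since the tests carry the spread between mice.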

Additional observations from a re-analysis of the deposited data

Results flagged for a closer look

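Among the myofibre markers, the burn effect differed between the ages for 2 fast myosin heavy chain genes, by the interaction test over 11 libraries. The young minus adult burn effect was 2.16 ± 0.31 on the log2 scale for Myh2 (adjusted p = 0.0127) and 1.72 ± 0.21 for Myh1 (adjusted p = 0.00641). Of the 7 myofibre markers, these 2 had estimates above 0 and the other 5 below, with a median of −0.32. An unadjusted p under 0.05 in the interaction test was found for 5 of the 7. In adult burn Myh2 fell by 1.54 ± 0.21 and Myh1 fell by 1.14 ± 0.14. Over 12 libraries edgeR's interactions were 1.81 and 1.49, with an adjusted p of 0.683 for both. DESeq2 over 11 libraries called 3 of the 7 markers in the interaction, where 43 of 10515 genes were called. Limma's voom on 12 libraries called 2 of the 7, where 2 of 12408 genes were. The study, in the text on its heat map, also describes Myh2 and Myh1 as lower after burn in adult mice and not in young mice. None of the 10 genes had an interaction past the threshold in edgeR with the filter on low counts, over 11 or 12 libraries, and without the filter 2 of the 10 did.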

How the results depend on the processing

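Of 522 log2 fold changes recomputed for the 10 genes, 437 kept their direction and side of the threshold, 52 lost and 29 gained a call, and 4 turned: Sesn2 over 12 libraries in young burn against young sham (0.11) and against adult burn (0.12), and Atf4 in young burn against young sham over 12 libraries (0.30) and with scaling by library size alone (0.00). Counts are given next as members of the 10 and then all genes. Over 12 libraries they were 0 and 1 in adult burn against adult sham (2 and 115 in the report), 8 genes in young burn against young sham (84), 0 and 467 between the sham groups (1 and 1488), 1 and 1343 between the burn groups (4 and 2623), 0 genes in the interaction (12), where 893 had an unadjusted p under 0.05, and 1 and 89 across both ages (2 and 272). Scaling by library size alone gave 1 and 67 in adult burn, 1 and 353 in young burn, 2 members between the sham groups, 19 genes in the interaction and 1 member across both ages. It moved the median of all genes by 0.16 in young burn, −0.13 between the sham groups and 0.18 in the interaction, and the share of calls that were higher to 95.8% from 69% in young burn, to 19.7% from 44.8% between the sham groups, to 100% from 83.3% in the interaction and to 88.9% from 68% across both ages. No filter on low counts gave 5 and 562 in adult burn, 2 and 593 in young burn, 4 members between the sham groups, 2 and 241 in the interaction and 4 and 799 across both ages. There Chac1's standard error in adult burn was 0.12 against 0.64, although its adult burn libraries spread from 97.1 to 282 CPM, and the cause was not tested. DESeq2 gave 211 genes in adult burn, 1 and 191 in young burn, 2 members between the sham groups, 2 between the burn groups and 1 and 43 in the interaction. Voom with sample weights on 12 libraries gave 1 and 51 in adult burn, 2 and 296 in young burn and 2 genes in the interaction. The young groups fitted alone gave 49 genes. DESeq2 size factors in edgeR moved no count by over 1.5 times.

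The replicate number as a block gave 1 and 72 in adult burn, 7 genes in young burn, 4 in the interaction and 1 and 172 across both ages. Same-numbered libraries did not deviate together: 3 of 18 pairs correlated over 0.1 (range −0.197 to 0.153).

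Leaving out 1 of the 11 libraries gave 0 to 3 members and 25 to 161 genes in adult burn, 0 to 1 and 2 to 203 in young burn, 1 to 2 and 564 to 1772 between the sham groups, 1 to 4 and 958 to 2837 between the burn groups, 0 and 1 to 31 in the interaction, and 1 to 3 and 75 to 394 across both ages. The causes of these shifts were not tested. With 2 or 3 mice a group, effects smaller than these spreads could be missed.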
